A study of Mus musculus with 60 samples.

Results

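Glutathione S-transferases were followed in mouse intrahepatic cholangiocyte organoids, hollow epithelial cultures grown from bile duct fragments of the liver. The 10 members were defined by their gene symbols: the alpha class genes Gsta1, Gsta2, Gsta3 and Gsta4, the mu class genes Gstm1, Gstm2 and Gstm3, the pi class gene Gstp1, the theta class gene Gstt1 and the microsomal gene Mgst1. All 10 were present in each count table, among 23440 genes in the comparison of culture methods, 23068 in the comparison of passages and 28773 in the single organoids, and all 10 passed the filter on low counts in every comparison.

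These enzymes join the thiol of glutathione to electrophilic compounds, which makes the products more soluble and ready for export from the cell. The cytosolic classes act on overlapping sets of drugs, toxins and products of lipid peroxidation, and the microsomal enzyme sits in membranes of the endoplasmic reticulum and the outer mitochondrial membrane. In liver, alpha and mu enzymes are abundant in hepatocytes, and many of their genes respond to the transcription factor NRF2 (gene Nfe2l2), which binds antioxidant response elements, and to xenobiotic receptors such as AHR and PXR (gene Nr1i2).

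All organoids came from livers of male C57BL/6N mice, 3-4 months old by the labels, and no gene or drug was varied. For the culture comparison, 3 organoid lines, each made from the pooled livers of several mice, were grown both in Matrigel domes and in shaken suspension with little Matrigel. For the passage comparison, Sets 1, 3 and 4, each from 1 mouse, were sequenced in bulk at passage 4 and again at passage 11, with 2 technical replicates that were summed here. For the comparison of organoids, intact organoids were picked one by one from suspension cultures of Set 1 at passage 11 (8 organoids kept by the study), Set 2 at passage 3 (10), Set 3 at passage 3 (5) and Set 4 at passage 4 (12), so that in these 35 libraries passage and mouse cannot be told apart. Where nothing else is said, values are CPM, which relate a count to the library total, after TMM scaling by a factor per library that sets the bulk of genes level, and calls are those of the edgeR quasi-likelihood test with a Benjamini-Hochberg adjusted P below 0.05 over all genes tested.

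The libraries held 1776490-14761853 counts in the culture comparison, 1486347-5532630 in the passage comparison and 1059002-11175868 in the 35 single organoids. All 12 cholangiocyte markers looked for (among them Epcam, Krt19, Krt7 and Sox9) were detected in every library. Alb, the defining hepatocyte transcript, stayed at 0.199-4.96 CPM in the bulk cultures, and of the other hepatocyte markers Ttr was the highest in most libraries (216-1093 CPM in bulk). The summed level of 6 endothelial markers was at most 3.03 CPM and that of 8 mesenchymal markers at most 0.795 CPM in any library, and Cd14 carried most of the summed level of 7 macrophage markers, with Ptprc at most 1.47 CPM. In bulk libraries, fewer cells of a type and less RNA per cell cannot be told apart.

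Several members lie side by side in the genome (GRCm38). Gsta4 (chr9:78182774-78209349), Gsta1 (chr9:78230656-78242684) and Gsta2 (chr9:78331018-78355788, opposite strand) form a group on chromosome 9, with 21.3 kb between Gsta4 and Gsta1 and 88.3 kb between Gsta1 and Gsta2. Gstm3 (chr3:107963696-107969283), Gstm2 (chr3:107981702-107986453) and Gstm1 (chr3:108012255-108017973) follow each other on chromosome 3, 12.4 kb and 25.8 kb apart. The others are single, with Gsta3 at chr1:21240589-21265661, Gstp1 at chr19:4035407-4037985, Gstt1 at chr10:75783813-75798584 and Mgst1 at chr6:138140316-138156755. Gsta3 overlaps the gene Gm28836 on the opposite strand, and the sources used here do not give whether the counting used strand, so counts of that pair are uncertain.

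The libraries read the 3′ end of transcripts, and 3 members have near copies there. Of the 451 stretches of 50 bases in the last 500 bases of Gsta1, 90.0% also occur in another gene, 88.7% in the predicted gene Gm3776. For Gsta2 the share was 51.0% (27.7% with Gsta1) and for Gstp1 75.2%, all with Gstp2. It was 3.10% for Gstm2, 0.887% each for Gstm1 and Gstm3 and 0 for Gsta3, Gsta4, Gstt1 and Mgst1. Values of Gsta1, Gsta2 and Gstp1 are therefore uncertain where reads could have gone to a copy. Gm3776 held 30.6-33.9 counts per 100 of Gsta1 in domes, 30.3-35.2 in suspension, 31.3-32.5 at passage 4 and 20.5-25.7 at passage 11. In the single organoids its medians were 46.3, 30.8, 41.8 and 28.7 counts per 100 of Gsta1 in Sets 1 to 4. Gstp2 held 12.97-13.8 counts per 100 of Gstp1 in domes and 13.5-14.2 in suspension.

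Promoters are shown for Gsta1 and Gsta2, the pair with the largest rise in domes among the members, and for Gstp1 and Gsta3, which carry antioxidant response element letters. Each is RefSeq sequence of GRCm38.p6 from 250 bases before to 50 bases after the annotated start, in the direction of the gene. The Gsta2 window lies wholly inside the gene span given above, which starts further upstream, and the region before that start was not searched. The first pair is chr9:78230419-78230718 (plus strand) and chr9:78347096-78347395 (minus strand), with capitals for runs of at least 12 bases that occur in both.
Gsta1 promoter: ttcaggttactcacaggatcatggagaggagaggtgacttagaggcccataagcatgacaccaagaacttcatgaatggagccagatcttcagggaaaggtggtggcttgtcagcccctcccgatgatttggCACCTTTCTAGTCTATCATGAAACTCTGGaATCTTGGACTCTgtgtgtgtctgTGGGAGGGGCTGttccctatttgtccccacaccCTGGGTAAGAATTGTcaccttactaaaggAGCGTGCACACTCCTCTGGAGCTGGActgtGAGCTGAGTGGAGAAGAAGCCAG
Gsta2 promoter: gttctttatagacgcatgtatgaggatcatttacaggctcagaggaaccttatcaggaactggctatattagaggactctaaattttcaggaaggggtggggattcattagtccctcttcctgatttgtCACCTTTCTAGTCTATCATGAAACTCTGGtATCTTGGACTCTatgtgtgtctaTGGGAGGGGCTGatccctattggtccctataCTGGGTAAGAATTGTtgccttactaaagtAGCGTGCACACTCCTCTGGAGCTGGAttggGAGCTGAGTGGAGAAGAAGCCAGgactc

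The promoters of Gsta1 and Gsta2 shared 117 of 300 bases (39.0%) in 6 such runs, the longest of 29 bases. Both held the xenobiotic response letters GCGTG, at -2 in Gsta1 and -7 in Gsta2 (first base relative to the start), which 32.4% of 32851 promoters of the same length also held on either strand. Below, capitals mark matches to the antioxidant response letters TGACNNNGC or TGAGNNNGC on either strand, in chr19:4037863-4038162 (Gstp1, minus strand) and chr1:21240335-21240634 (Gsta3, plus strand).
Gstp1 promoter: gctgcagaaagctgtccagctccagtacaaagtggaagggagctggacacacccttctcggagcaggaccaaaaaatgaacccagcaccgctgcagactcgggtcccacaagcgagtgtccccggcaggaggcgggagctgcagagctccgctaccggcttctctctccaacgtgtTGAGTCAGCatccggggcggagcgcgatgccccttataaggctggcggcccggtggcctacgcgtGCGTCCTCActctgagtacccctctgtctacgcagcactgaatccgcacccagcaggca
Gsta3 promoter: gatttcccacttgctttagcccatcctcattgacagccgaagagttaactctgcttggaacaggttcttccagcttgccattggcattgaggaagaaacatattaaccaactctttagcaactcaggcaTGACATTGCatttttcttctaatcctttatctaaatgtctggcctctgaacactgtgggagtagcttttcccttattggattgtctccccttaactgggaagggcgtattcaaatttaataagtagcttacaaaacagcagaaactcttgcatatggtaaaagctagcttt

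Of the 9 members with a promoter in the table, Gsta3 (at -121) and Mgst1 (at -56, other strand) held TGACNNNGC, which 12.4% of all promoters held. Gstp1 (at -74 and, on the other strand, at -9) and Gstt1 (at -89) held TGAGNNNGC, found in 17.6% of all promoters. GCGTG was also present in Gstm1 and Gstp1. None of these letters were in the windows of Gstm2 and Gstm3. Gsta4 has no entry, and the Gstt1 window, like that of Gsta2, lies wholly inside the gene span given above. Mgst1 and Gstm1 each had a further window among the 11 searched, and the other Mgst1 window (chr6:138141337-138141636) held no antioxidant response letters. The shares of all promoters count single windows.

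The first comparison asked how growth in domes and in suspension differs. Of the 10 members, 8 were higher in domes and 0 were lower, against 15.02% of 12699 genes called higher and 14.7% called lower (29.8% called in either direction). The fitted rise was 12.7-fold for Gsta1 and 7.35-fold for Gsta2, 2.02- to 2.82-fold for Gstt1, Gsta4, Gstm2 and Gstm1, and 1.77- and 1.70-fold for Mgst1 and Gstp1. Gsta3 and Gstm3 were not called. The same 8 members had domes and suspension cultures that did not overlap (47.4% of all genes, 21.6% with domes higher), and 6 were called and higher by at least 1 on the log2 scale (9.87% of all genes). The median log2 fold-change was 1.19 over the members and -0.04 over all genes.

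Gsta1, which encodes an alpha subunit active on lipid hydroperoxides, had 2164, 3297 and 1992 CPM in domes 1 to 3 and 162, 226 and 200 CPM in suspension 1 to 3. Every dome culture was far above every suspension culture, and the dome to suspension ratio of same-numbered cultures was 9.94-14.6. The fitted log2 fold-change was 3.66 (SE 0.29, adjusted P = 0.000367), the 6th smallest P-value of the 12699 genes.
Gsta2 stood at 14.3, 16.9 and 6.60 CPM in domes and at 1.47, 2.37 and 1.52 CPM in suspension. It followed Gsta1 at a much lower count (12-188 counts per dome library and 7-22 per suspension library), with ratios of 4.35-9.72 between same-numbered cultures. Its log2 fold-change was 2.88 (SE 0.39, adjusted P = 0.00150). Gsta2 held 0.331-0.662 counts per 100 of Gsta1 in domes and 0.757-1.05 in suspension, and how reads were divided between these copies was not tested.
Gsta4, whose enzyme is known for its activity on 4-hydroxynonenal, had 3007, 4168 and 3129 CPM in domes and 1265, 1280 and 1312 CPM in suspension. The suspension cultures differed little from each other, and the log2 fold-change was 1.42 (SE 0.24, adjusted P = 0.00344). Gsta3, an alpha enzyme known in mouse for its activity on the epoxide of aflatoxin, had 549, 402.5 and 359 CPM in domes and 313, 404 and 351 CPM in suspension. These groups overlapped, and the difference of 0.30 (95% interval -0.14 to 0.74, adjusted P = 0.334) did not pass the test. The alpha class was thus split, with Gsta3 the one alpha member without a call.

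**Figure D1:**
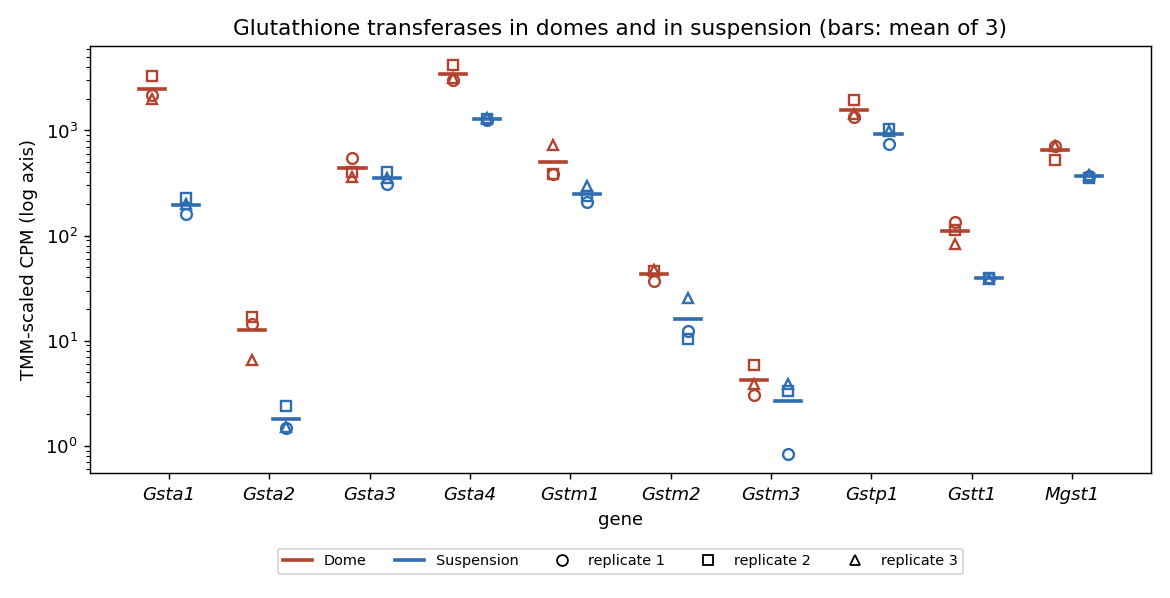
TMM-scaled CPM (log axis) of the 10 genes in 3 dome and 3 suspension libraries, with symbols for the replicate number and a bar at each group mean. Domes lie above suspension without overlap for 8 genes, with Gsta1 at 1992-3297 against 162-226 CPM, and the groups overlap for Gsta3 and Gstm3.

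The mu class genes encode cytosolic enzymes active on epoxides and other electrophiles. Gstm1 had 387, 383 and 724 CPM in domes and 210, 237 and 293 CPM in suspension, with dome 3 well above the other domes. The groups did not overlap (log2 fold-change 1.01, SE 0.28, adjusted P = 0.0233). Gstm2 had 36.9, 46.2 and 47.3 CPM in domes against 12.4, 10.4 and 25.4 CPM in suspension, where replicate 3 stood apart from the others, and was higher by 1.38 (SE 0.32, adjusted P = 0.0119). Gstm3 had 3.05, 5.87 and 3.85 CPM in domes and 0.842, 3.31 and 3.86 CPM in suspension, from 4-56 counts a library. The groups overlapped and the difference did not pass the test (0.42, 95% interval -0.59 to 1.43, adjusted P = 0.562).

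Gstp1, the pi class enzyme known from bile duct epithelium, had 1335, 1952 and 1420 CPM in domes and 747, 1026 and 994 CPM in suspension. The groups were close to each other but did not overlap (log2 fold-change 0.77, SE 0.25, adjusted P = 0.0400). Gstt1, whose theta class enzyme handles small halogenated compounds, had 133, 112 and 83.6 CPM in domes and 39.1, 39.3 and 38.8 CPM in suspension. The suspension values were nearly equal and all domes were at least 2.16-fold above their partner (1.50, SE 0.21, adjusted P = 0.00170). Mgst1, which reduces lipid hydroperoxides in membranes as well as conjugating electrophiles, had 710, 529 and 714 CPM in domes and 366, 357 and 379 CPM in suspension (0.83, SE 0.20, adjusted P = 0.0143). Summed over the 10 genes, domes held 8340-10913 CPM and suspension cultures 3117-3600 CPM.

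The calls of Gsta1, Gsta2, Gsta4 and Gstt1 were kept when any 1 of the 6 libraries was left out and under every other setting. Without suspension 1, Gstm1, Gstm2, Gstp1 and Mgst1 were lost and 4 members were called, without suspension 2 or suspension 3 Gstm1, Gstp1 and Mgst1 were lost (5 called), and without dome 2 Gstp1 was lost (7 called). TMM factors ranged over 0.724-1.20 in these 6 libraries. With library totals alone, a setting chosen after seeing the data, the median of all genes moved from -0.04 to -0.42, 21.8% instead of 50.5% of called genes were higher in domes, and Gstm1, Gstm2, Gstp1 and Mgst1 lost their call with differences of 0.67, 0.98, 0.35 and 0.46, while the uncalled Gsta3 turned from 0.30 to -0.09.

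Other measures moved with the culture method. The 12 cholangiocyte markers summed to 15481-31943 CPM in domes and 10481-11696 CPM in suspension, with 6 called higher in domes and 1 lower. Of all genes, 15.02% were called higher and 14.7% lower. Spp1 had a median of 756 CPM in domes and 2872 CPM in suspension. The 10 proliferation genes (such as Mki67 and Top2a) summed to 180-411 CPM in domes and 793-938 CPM in suspension, all 10 called lower in domes. Mitochondrial transcripts made up 1.64-2.02% of counts in domes and 3.72-4.02% in suspension. Hepatocyte markers summed to 614-952 and 311-686 CPM, with Alb at most 4.96 CPM in either, and the summed macrophage level, mostly Cd14, was 207-281 and 524-649 CPM. The part of these measures in the rise of the transferases was not tested.

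Genes around the members were described from lists chosen with earlier results of these data known. The counts of every list stand beside 15.02% of all genes called higher in domes and 14.7% called lower. Of 16 tested genes among 22 other transferases and relatives, 8 were higher in domes and 0 lower. Mgst3 rose from a mean of 291 to 1366 CPM (log2 fold-change 2.23, SE 0.29, adjusted P = 0.00139). Gstp3 rose by 2.35 (SE 0.31) and Ptges, the inducible prostaglandin E synthase of the same superfamily as Mgst1, by 2.60 (SE 0.71). Of 17 genes of glutathione synthesis and use, 4 were higher and 2 lower, beside 15.02% and 14.7% of all genes, with Gss, the second enzyme of glutathione synthesis, higher by 1.38 (SE 0.23), while Gpx2, a glutathione peroxidase of gut-type epithelia, and Slc7a11, the cystine importer, had log2 fold-changes of -1.30 (SE 0.19) and -1.22 (SE 0.27). Of 9 tested genes of conjugate export and breakdown, 3 were higher, led by the basolateral efflux pump Abcc3 (84.2 to 346 CPM on average, 2.03, SE 0.27). Of 13 tested regulators 4 were higher and 0 lower, among them Nr1i2 (2.25, SE 0.47), Keap1 (1.24, SE 0.23) and Maff (1.20, SE 0.30). Nr1i2 rose from a low mean of 0.902 to 5.00 CPM. Nfe2l2 (-0.33, SE 0.20) and Ahr (0.11, SE 0.54) were not called.

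The second comparison asked what changes between passage 4 and passage 11 of the same 3 sets. In the fit without pairing, Gstt1 was the one member called, and it was lower at passage 11, while 0 members were higher (10.1% of 13738 genes were called lower and 10.1% higher, 20.3% in all). The fit that pairs the passages of each set also called Gstp1 lower, as given below. Gsta1 was lower in Sets 1 and 4 but higher in Set 3, so its mean moved without a call. Gsta3 and Gsta4 differed little between passages in any set. The median log2 fold-change of the members was -0.33, against -0.05 over all genes.

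Gstt1 had 49.5, 84.6 and 60.2 CPM at passage 4 in Sets 1, 3 and 4 and 27.2, 39.0 and 16.5 CPM at passage 11. Each set fell by itself, 1.82-fold in Set 1, 2.17-fold in Set 3 and 3.64-fold in Set 4, and the passages did not overlap (39.5% of all genes, 20.3% with passage 11 lower). The log2 fold-change was -1.17 (SE 0.27, adjusted P = 0.0150). The call was lost without Set 3 at passage 4 (-0.94, adjusted P = 0.0612) and without Set 1 at passage 11 (-1.11, adjusted P = 0.0511), where Mgst1 was called in its place (-0.58, adjusted P = 0.0495).
Gstp1 had 783, 424 and 365 CPM at passage 4 and 384, 249 and 332 CPM at passage 11. It was lower in all 3 sets, although in Set 4 the technical replicates of the passages overlapped. The log2 fold-change of -0.70 (SE 0.27) did not pass the test (adjusted P = 0.0939). In the fit that pairs the passages of each set, it was -0.65 (SE 0.17, adjusted P = 0.0225) and Gstp1 joined Gstt1, giving 2 members called.
Mgst1 had 968, 1282 and 1077 CPM at passage 4 and 971, 647 and 836 CPM at passage 11. Set 1 stayed level while Sets 3 and 4 were lower at passage 11, and the mean difference was not called (-0.44, SE 0.18, adjusted P = 0.110). With Set 1 left out at both passages it was -0.66 (adjusted P = 0.0219).

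Gsta1 had 1412, 348 and 239 CPM at passage 4 and 199, 603 and 69.3 CPM at passage 11 in Sets 1, 3 and 4. The technical replicates of the passages were separate within each set, with Set 1 7.08-fold and Set 4 3.45-fold lower and Set 3 1.73-fold higher at passage 11. The common log2 fold-change was -1.18 (95% interval -2.62 to 0.26, adjusted P = 0.291), and it was 0.00057 without Set 1 at passage 4 and -2.60 without Set 3 at both passages (adjusted P = 0.0709). Gsta2 had 29.8, 7.68 and 5.81 CPM at passage 4 and 3.37, 7.95 and 0.636 CPM at passage 11. It moved with Gsta1 in Sets 1 and 4 and was level in Set 3 (-1.56, SE 0.68, adjusted P = 0.134). Gsta4 ranged over 836-878 CPM at passage 4 and 877-989 CPM at passage 11 (0.09, 95% interval -0.16 to 0.35). Gsta3 ranged over 508-581 and 454-585 CPM (-0.02, 95% interval -0.31 to 0.26).

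Gstm1 had 427, 390 and 299 CPM at passage 4 and 732, 331 and 391 CPM at passage 11, so that Sets 1 and 4 were higher and Set 3 lower at passage 11 (0.38, SE 0.27, adjusted P = 0.346). Gstm2 (8.55-15.3 and 9.35-28.0 CPM) and Gstm3 (4.22-7.00 and 3.82-4.97 CPM) overlapped between passages and were not called.

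**Figure D2:**
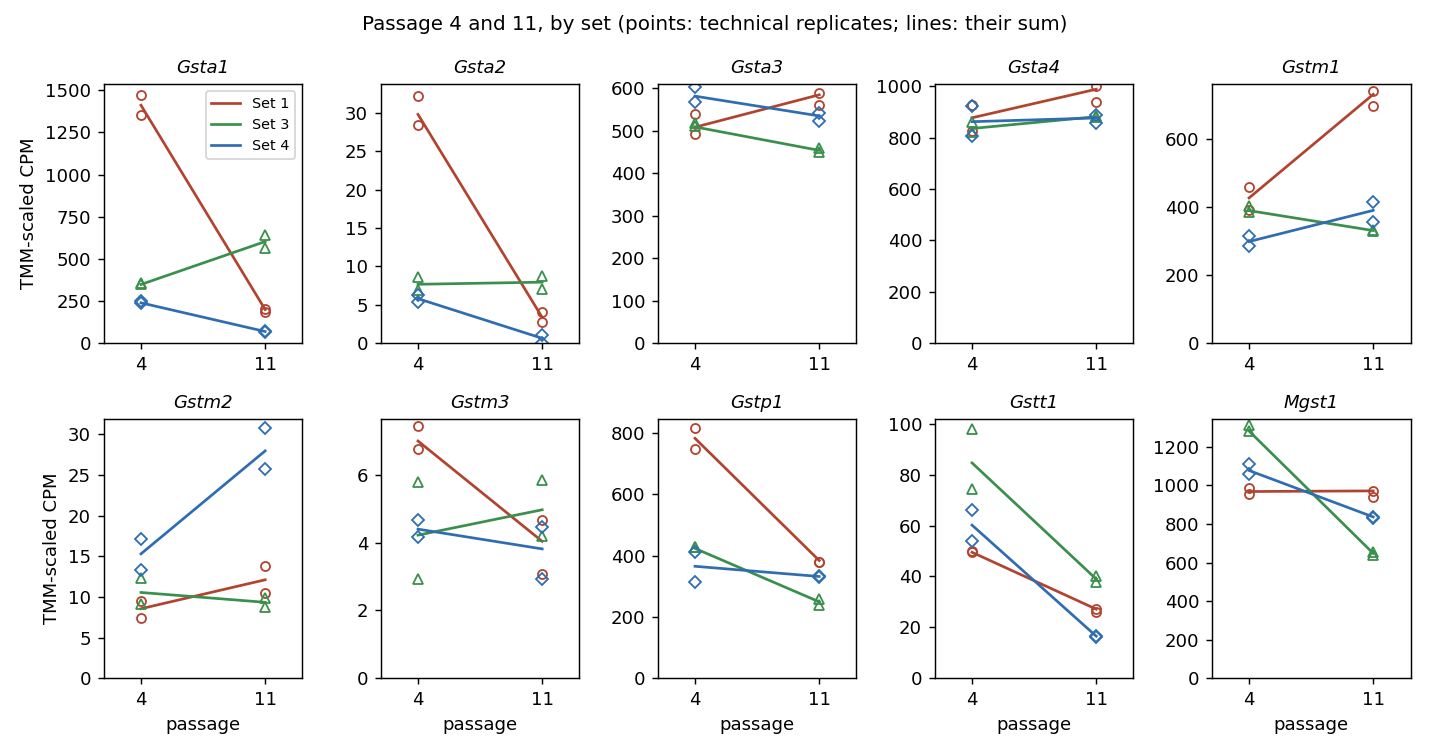
TMM-scaled CPM of each gene at passages 4 and 11 in Sets 1, 3 and 4, with points for the 2 technical replicates and lines joining their sums. Gstt1 falls in all 3 sets, Gsta1 falls in Sets 1 and 4 and is higher in Set 3 (348 to 603 CPM), and Gsta3 and Gsta4 change little.

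The 10 proliferation genes summed to 326-377 CPM at passage 4 and 847-1180 CPM at passage 11, with 9 called higher. The counts of this and the following lists stand beside 10.1% of all genes called higher at passage 11 and 10.1% called lower. Passages, and so the direction of each change, Gstt1 included, follow the sample titles. The paper's text ties genes lower at passage 11 to proliferation, while its figure legend places those terms among genes higher at passage 11. Cd14 was at 858-1154 and 377-619 CPM, and mitochondrial transcripts made up 1.99-2.63% and 0.895-1.71% of counts. The hepatocyte markers summed to 340-754 and 815-1166 CPM, with 2 of 7 tested called higher at passage 11 and 0 lower. The part of these measures in the change of Gstt1 was not tested. Around the members, 1 of 16 other transferases was called, Mgst3, which was higher at passage 11 (0.89, SE 0.24). Of 17 genes of glutathione synthesis and use 3 were higher and 4 lower. Slc7a11 had -3.02 (SE 0.31, mean 145 to 17.02 CPM), Gclc, the catalytic subunit of the enzyme that limits glutathione synthesis, -1.86 (SE 0.24, mean 118 to 31.9 CPM) and Cth, which makes cysteine from cystathionine, -1.56 (SE 0.47). Of 9 export genes 1 was higher and 3 lower, the efflux pumps Abcc1 (-1.86, SE 0.30), Abcc4 (-1.72, SE 0.20) and Abcc3 (-0.73, SE 0.16). Of 14 regulators 4 were lower, among them Bach1 (-1.75, SE 0.38), Mafg (-1.64, SE 0.24) and Ahr (-1.61, SE 0.25). 

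**Figure D3:**
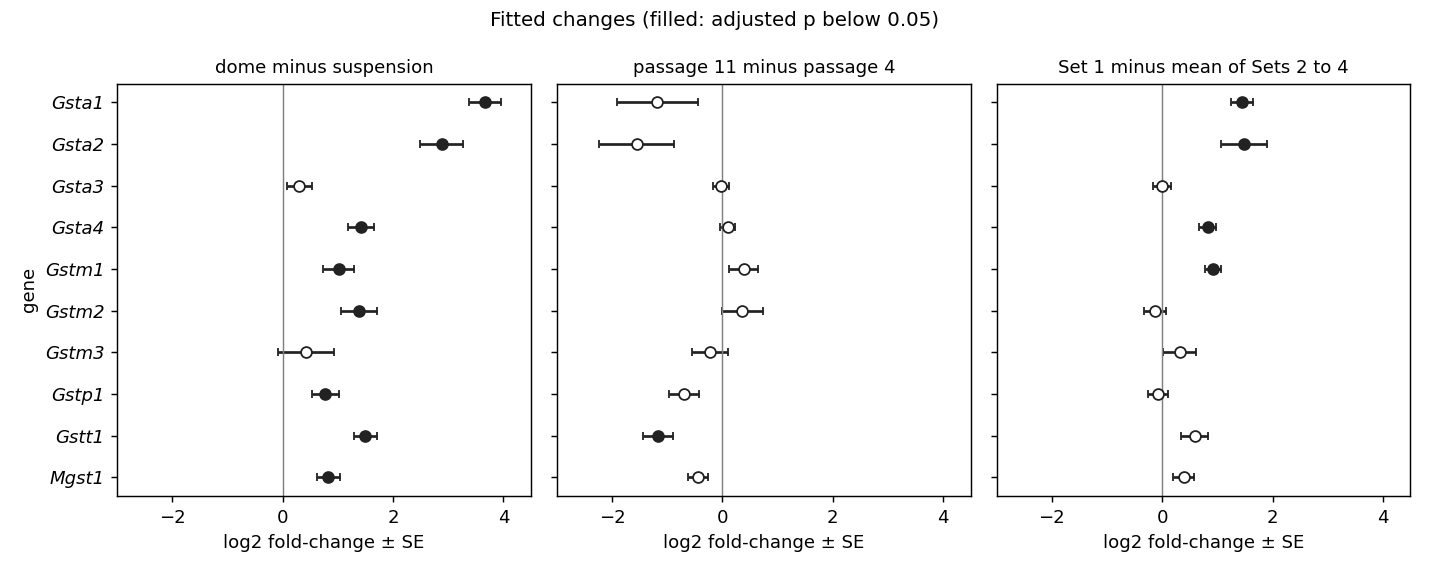
Fitted log2 fold-change with its SE (x axis) for each gene in the comparisons of dome with suspension, passage 11 with passage 4, and Set 1 with the mean of Sets 2 to 4. Filled points have an adjusted P below 0.05 in fits without pairing: 8 genes in the first panel, Gstt1 in the second and 4 genes in the third.

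The third comparison set the single organoids of Set 1, taken at passage 11, against those of Sets 2 to 4. Each set is 1 mouse, so P-values here measure the spread between organoids, not between mice. Of the 10 members 4 were higher in Set 1 (Gsta1, Gsta2, Gsta4 and Gstm1) and 0 were lower, where 10.3% of 13927 genes were called higher and 7.73% lower (18.04% in all). The organoids of Set 1 overlapped with the rest for every member (groups without overlap made up 0.266% of all genes). The other 6 members were not called. The median log2 fold-change was 0.49 over the members and 0.01 over all genes.

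Gsta1 ranged over 36.9-266 CPM in the 8 organoids of Set 1 (median 126), 31.7-101 in Set 2 (median 52.2), 32.5-77.8 in Set 3 (median 43.0) and 30.1-67.6 in Set 4 (median 38.3). In Set 1, 6 of 8 organoids lay above all 27 organoids of the other sets. Set 1 was higher by 1.45 on the log2 scale (SE 0.21, adjusted P = 1.19e-06), and by 1.21, 1.40 and 1.73 against Sets 2, 3 and 4 taken singly (adjusted P = 0.00106, 0.00265 and 2.33e-06, over all genes and 6 comparisons that share samples). The neighbours in the order of medians, Sets 2 and 3 and Sets 3 and 4, did not differ beyond their spread (0.19, 95% interval -0.40 to 0.78, and 0.34, -0.23 to 0.90). Set 2 was higher than Set 4 by 0.53 (95% interval 0.07 to 0.99), which was not called after adjustment (adjusted P = 0.138).
Gsta4 ranged over 823-2481 CPM in Set 1 (median 1214), 601-1561 in Set 2 (median 811), 609-802 in Set 3 (median 707) and 657.5-1119 in Set 4 (median 760). All 8 organoids of Set 1 were above the median of the others and above every organoid of Set 3. The difference from the mean of the other sets was 0.82 (SE 0.16, adjusted P = 0.000139), and it was called against each set (0.65, 0.99 and 0.83).
Gstm1 ranged over 412-1155 CPM in Set 1 (median 689), 304-723 in Set 2 (median 440), 329-412 in Set 3 (median 370) and 248-408 in Set 4 (median 348). Set 1 did not overlap with Set 3 (1.60% of all genes with Set 1 higher) or Set 4 (0.761%), and was higher by 0.93 (SE 0.15, adjusted P = 6.68e-06), with calls against each set (0.68, 1.02 and 1.09). Sets 2, 3 and 4 were not called against each other for Gstm1.
Gsta2 ranged over 0.867-4.26 CPM in Set 1 and 0-2.63 CPM in the others, and was higher by 1.48 (SE 0.41, adjusted P = 0.00899). It was called against Sets 2 and 4 (1.86 and 1.70) but not against Set 3 (0.88, 95% interval -0.31 to 2.07, adjusted P = 0.368). With 2-39 counts per organoid in Set 1 and 0-8 elsewhere, these values carry wide counting error. It was at 0 in 7 of 35 organoids, which at 3 counts allows 0.471-2.23 CPM, an interval for counting error only.

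**Figure D4:**
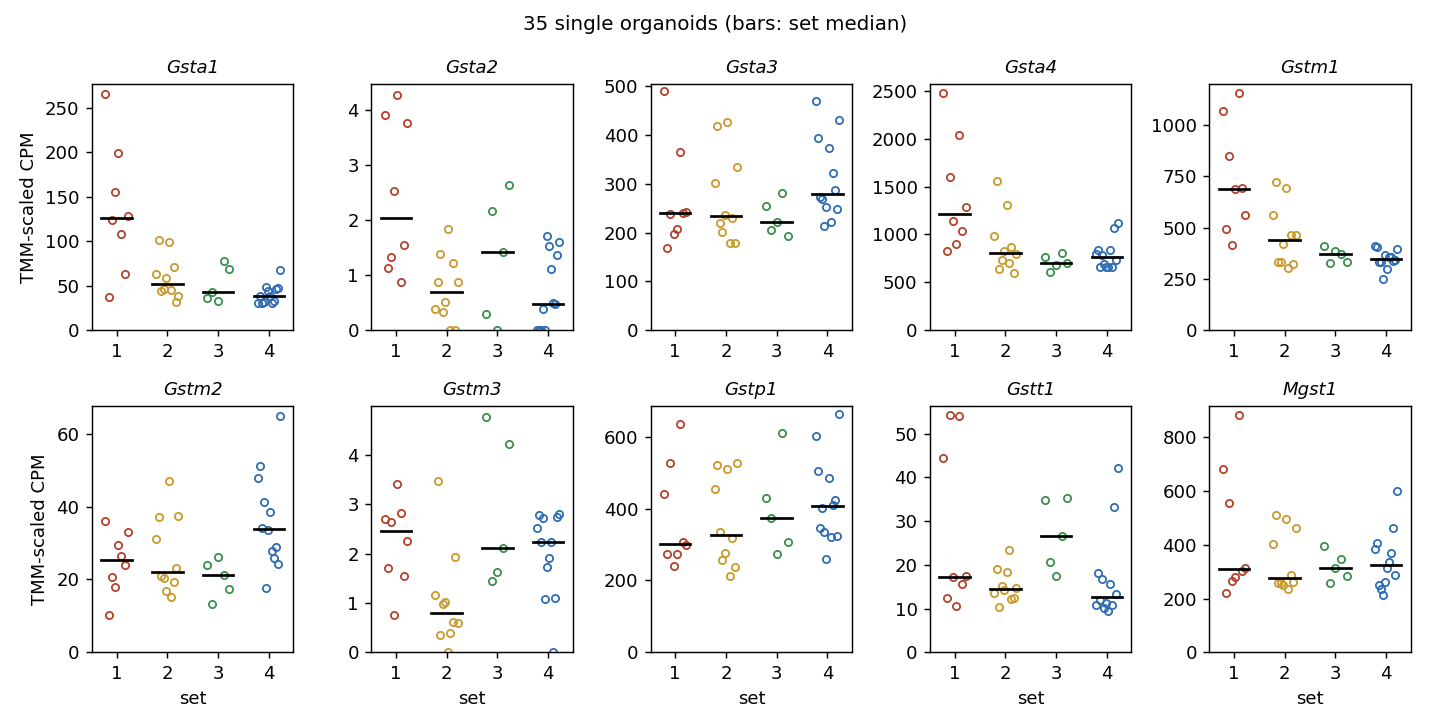
TMM-scaled CPM of the 10 genes in 35 single organoids by set, with 1 point per organoid and a bar at the set median. Set 1 lies higher for Gsta1, Gsta4 and Gstm1 (medians 126, 1214 and 689 CPM), while a few organoids of Sets 1 and 4 stand above the rest of their set for Gstt1.

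The remaining members were not called in Set 1 against the mean of the other sets. Gsta3 had medians of 240, 234, 221 and 280 CPM in Sets 1 to 4 (Set 1 against the rest -0.01, 95% interval -0.34 to 0.33) and Gstp1 303, 325, 374 and 406 CPM (-0.07, -0.43 to 0.28), and neither was called in any of the 6 comparisons between sets. The same held for Mgst1, with medians of 309, 276, 315 and 324 CPM (0.39, 0.01 to 0.77, adjusted P = 0.168). Gstt1 had medians of 17.2, 14.4, 26.5 and 12.6 CPM (0.59, SE 0.24, adjusted P = 0.0886) and was called in Set 1 over Set 2 (0.94, SE 0.30, adjusted P = 0.0322), a call lost with limma-voom (0.73, adjusted P = 0.103) and with all 42 organoids (0.83, adjusted P = 0.0575). With Set 3 left out of the fit, Gstt1 was called in Set 1 against Sets 2 and 4 (0.82, adjusted P = 0.0191), which made 5 members.
Gstm2 had medians of 25.2, 22.1, 21.2 and 33.8 CPM and Gstm3 of 2.45, 0.795, 2.12 and 2.22 CPM. Gstm2 was lower in Set 3 than in Set 4 (-0.84, SE 0.27, adjusted P = 0.0341), a call lost without organoid 3, 5 or 6 of Set 3 (-0.72, -0.86 and -0.80, adjusted P = 0.110, 0.0575 and 0.0800). Gstm3 was lower in Set 2 than in Set 3 (-1.44, SE 0.45, adjusted P = 0.0280), a call lost without organoid 1 or 6 of Set 3 (-1.13 and -1.30, adjusted P = 0.137 and 0.0776). Over the 6 comparisons, 14 of 60 member tests were called. Of these, 12 had Set 1 higher, with 5 members against Set 2 (7.08% of all genes called higher in Set 1), 3 against Set 3 (4.30%) and 4 against Set 4 (12.4%). Between the other sets, 1 member was lower in Set 2 than in Set 3 (1.88% of all genes called lower), 1 was lower in Set 3 than in Set 4 (3.67%) and 0 differed between Sets 2 and 4 (12.4% called in either direction).

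In these organoids 8 of 10 proliferation genes were lower in Set 1, with summed levels of 431-1328 CPM in Set 1 and 867-1736 CPM in the others. The counts of this and the following lists stand beside 10.3% of all genes called higher in Set 1 and 7.73% called lower. Of 7 tested hepatocyte markers 5 were higher in Set 1, where the summed level of the list was 586-2468 CPM against 480-2679 CPM elsewhere. Alb had medians of 2.03, 3.76, 2.53 and 0.930 CPM in Sets 1 to 4, with a maximum of 44.0 CPM in Set 1 and 6.93 CPM elsewhere. Their part in the higher transferase values was not tested. Of 13 other transferases 3 were higher and 2 lower in Set 1, with Mgst3 (1.55, SE 0.20), Mgst2 (0.97, SE 0.32) and Gsto1 (0.65, SE 0.13). Of 17 genes of glutathione synthesis and use 3 were higher and 3 lower, with Gclc higher by 1.33 (SE 0.17) and Slc7a11 and Chac1, which breaks down glutathione, at -1.92 (SE 0.32) and -1.61 (SE 0.36). Of 9 export genes 2 were higher, Abcc3 (1.18, SE 0.15) and Ggt6 (0.56, SE 0.20). Of 13 regulators 2 were higher and 2 lower, with Nfe2l2 higher by 0.60 (SE 0.16) and Cebpb and Ahr at -0.86 (SE 0.21) and -0.63 (SE 0.17).

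The bulk and single organoid tables were normalised separately, and their values are only set side by side. Per the study's methods, bulk libraries came from total RNA and single organoid libraries from mRNA captured on beads. Levels of other genes also differed between the tables. Cftr had 185-258 CPM in the bulk passage samples and 0.440-10.5 CPM in single organoids. For Set 1, Gsta1 stood at 1412 CPM in bulk at passage 4 and 199 CPM in bulk at passage 11, while the single organoids of Set 1, also at passage 11, had a median of 126 CPM, above the 38.3-52.2 CPM of the sets at passages 3 and 4. Gstm1 of Set 1 was the highest of the 6 bulk samples at passage 11 (732 CPM) and the highest set among single organoids (median 689 CPM). Gclc was lower at passage 11 in bulk and higher in the organoids of Set 1, whereas Slc7a11 was lower in both. Of the 10 proliferation genes, 9 were called higher at passage 11 in bulk (10.1% of all genes). In the organoids of Set 1, 8 were called lower (7.73% of all genes). The cause of this difference was not tested.

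Members differed in how much they varied between organoids of the same set. Within sets, the SD of log2 CPM was 0.60 for Gsta1, 0.66 for Gstt1, 0.51 for Mgst1, 0.46 for Gstp1, 0.53 for Gstm2, 0.42 for Gsta3, 0.40 for Gsta4 and 0.37 for Gstm1, and 1.34 and 0.89 for the sparsely counted Gsta2 and Gstm3. Among genes of like level (within 0.5 log2 CPM), Gsta2 stood at percentile 96.2, Gsta1 at 94.2 and Gstt1 at 93.5, followed by Mgst1 at 88.0 and Gstp1 at 84.4, while Gstm1 and Gsta4 were near the middle (53.3 and 49.2). Differences between set means took up 55.6% of the variance of Gstm1, 51.8% of Gsta1 and 42.2% of Gsta4, but 5.44% of Gstp1 and 4.89% of Mgst1, beside a median of 19.3% over all genes.

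High Gstt1 values were found in a few organoids. In Set 1, organoids 1, 3 and 6 had 44.4, 54.1 and 53.9 CPM and the other 5 had 10.7-17.3 CPM, and in Set 4, organoids 13 and 15 had 33.2 and 42.2 CPM and the other 10 had 9.52-18.1 CPM. Organoids 1, 3 and 6 of Set 1 were also the 3 highest of their set for Gsta4 (2481, 1598 and 2044 CPM), Mgst1 (683, 554 and 884 CPM) and Gstm1 (1065, 850 and 1155 CPM). For Gsta1 the order differed, with 266 CPM in organoid 1 but 124 and 108 CPM in organoids 3 and 6, below the 199 CPM of organoid 5. Organoids 13 and 15 of Set 4 were the 2 highest of their set for Gsta4 (1068 and 1119 CPM) and Mgst1 (463 and 601 CPM). For Gstm1 they were not, with 337 and 396 CPM, below the 408 and 407 CPM of organoids 1 and 2 of Set 4. The 5 organoids named for high Gstt1 also had some of the deepest libraries of their sets (11175868, 4638927, 5595426, 7383116 and 5945252 counts), and the part of depth in these values was not tested.

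Over the 35 organoids with set means subtracted, the 45 pairs of members had a median Pearson r of 0.42, with 20 pairs above 0.5 and 1 below 0, whereas the median r of a member with all 6121 genes of at least 4 log2 CPM was -0.03 to 0.03. These are descriptions over organoids that share set, library preparation and depth. The highest values were those of Gsta4 with Mgst1 (r = 0.85, rho = 0.79) and of Gsta3 with Gstp1 (r = 0.84, rho = 0.84). Gsta1 went most with Gsta4 (r = 0.63) and Gsta2 (r = 0.54), and Gsta2 and Gstm3, with few counts, went with little else. The close values were not particular to transferases, since 22.1-32.6% of the 6121 genes had r above 0.5 with Gsta3, Gsta4, Gstm1, Gstm2, Gstp1 or Mgst1, against 0.768% with Gsta1. With the log2 library total, r was 0.49 for Gstt1, 0.45 for Mgst1 and 0.39 for Gstp1 but 0.04 for Gsta1, and with the mean of the proliferation genes -0.45 for Gstt1 and -0.35 for Gsta1.

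**Figure D5:**
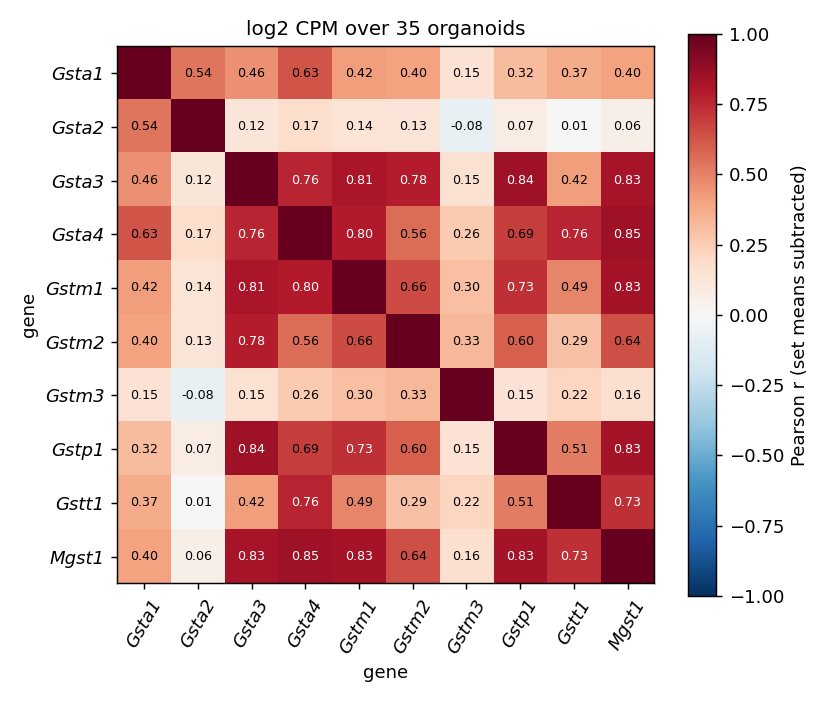
Pearson r of log2 CPM for each pair of genes over 35 organoids, with set means subtracted (red above 0, blue below). A block of high values joins Gsta3, Gsta4, Gstm1, Gstp1 and Mgst1 (up to 0.85), while Gsta2 and Gstm3 are pale.

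Among genes outside the transferase lists, those most like each member were named by their r over the 35 organoids. Gsta1 was closest to Tff3, a trefoil peptide of mucus-secreting epithelia (r = 0.75), and Cyp3a13, a drug-metabolising cytochrome P450 (r = 0.69). Within sets, r with Tff3 was 0.83, 0.96, -0.58 and 0.69 in Sets 1 to 4, and with Cyp3a13 0.85, 0.71, 0.13 and 0.16. Gsta3 and Gstm1 were both closest to the potassium channel subunit Kcne3 (r = 0.92 and 0.90). Gstt1 was closest to Clu, the secreted chaperone clusterin (r = 0.85), and Ly6d (r = 0.85), with within-set values of 0.89, 0.67, 0.34 and 0.95 for Clu and 0.93, 0.46, 0.47 and 0.92 for Ly6d in Sets 1 to 4. Mgst1 went with Ndufb11 (r = 0.95) and Higd2a (r = 0.94) and Gstp1 with Ndufb8 (r = 0.92), all genes of small mitochondrial inner membrane proteins. The closest of all was the pseudogene Gstp-ps with Gstp1 (r = 0.99), a copy whose reads may not be separable from those of Gstp1. Gsta4 was closest to Gm5526 (r = 0.88) and Tstd1 (r = 0.88) and Gstm2 to Krtcap3 (r = 0.81) and Pnkd (r = 0.80).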

How the data were processed

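The deposited values were integer counts per gene in 3 tables covering 60 samples. Per the study's methods, 3′-end libraries with molecular identifiers were processed by the authors with zUMIs, STAR, SAMtools 1.9 and featureCounts on mm10 (Ensembl annotation of GRCm38) and down-sampled depending on library size. Counting of molecules or reads, and deposit before or after down-sampling, are not given in the sources used here. Samples were grouped by their titles, technical replicates were summed, and the 7 organoids left out by the study (666660-1152914 counts) were used in an alternative only. No column was left unused.

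The filter was filterByExpr (minimum count 3). After TMM scaling, edgeR 4.0.16 in R 4.3.3 gave quasi-likelihood tests, adjusted by Benjamini-Hochberg, for the 6 comparisons between sets over all together. SEs were derived from the F statistic and 95% intervals are 1.96 SE. Organoid spread and correlations used log2 CPM of voom (limma 3.58.1, offset of 0.5 counts). Alternatives were RLE factors, other filters, limma-voom, DESeq2 1.42.0, thinning, pairing, library totals and leaving out libraries or sets. Each fit was first tested on simulated counts. Gene names matched GENCODE, and promoters came from RefSeq. Gsta5 and Gsta13 were not matched. The members and gene lists were chosen with earlier results of these data known. All members were named, and of other lists the 3 called genes with the largest change, with Nfe2l2 and Ahr added for domes. Same-numbered dome and suspension libraries deviated together (residual r = 0.133, 0.153 and 0.188), and passages of a set come from the same mouse (0.0980, 0.0283 and 0.0858), so these numbers pair samples. Organoids of 1 set are separate organoids of 1 mouse, so P-values between sets measure the spread between organoids, not between mice. At the smallest single organoid total, 1059002 counts, 1 CPM is about 1 count.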

Additional observations from a re-analysis of the deposited data

Results flagged for a closer look

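In the passage comparison, sets moved in opposite directions for 3 members, with technical replicates of the passages separate in each of the sets compared. The ratio of passage 11 to passage 4 was 0.141 in Set 1, 1.73 in Set 3 and 0.289 in Set 4 for Gsta1, 1.15, 0.891 and 0.920 for Gsta3, and 1.71, 0.849 and 1.31 for Gstm1. These differences between sets were not tested. The steps for Gsta3 were small beside those of Gsta1.

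The 7 organoids that the study left out held signal as well, with a median summed level of the 10 members of 2106 CPM (1650-4027), beside 1668-5513 CPM in the 35 kept. No single organoid stood apart from its set by Dixon's test in 30 tests of a member in a set of 5 to 10 organoids, where chance alone flags about 1 in 20. Set 4, with 12 organoids, was outside these tests. The test looks for a lone extreme value, so it cannot show organoids that are high together, such as those for Gstt1 in Set 1.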

How the results depend on the processing

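Dome against suspension gave 8 members called under every other setting (RLE factors, no filter, a minimum count of 10, limma-voom, DESeq2, thinning to equal totals and pairing by replicate block), 4 with library totals alone, and 4-8 when 1 library was left out. For passage 11 against passage 4, 1 member was called, and 0-1 with 1 library left out, 2 with DESeq2 (Gstp1 added, adjusted P = 0.0422), 2 with thinning (Gsta2 added, -2.72, adjusted P = 0.0313), 2 with the replicate block, 2 with Set 1 left out at both passages and 4 without a filter (Gsta1, Gsta2, Gstp1 and Gstt1). All-gene calls fell from 2784 to 561 without Set 3 at both passages. The replicate block changed no other member call between culture methods or passages. Set 1 against Sets 2 to 4 gave 3-5 members over all settings (3 where a minimum count of 10 or thinning removed Gsta2 from the test) and 4 with any organoid of Set 3 left out. The pairs of sets gave 12-14 calls with 1 organoid of Set 3 left out and 10 with all 42 organoids. Organoid numbers in different sets name separate organoids of separate mice, and a block on them (Gstt1 added in Set 1, adjusted P = 0.0480; Gsta4 and Gstt1 in Set 1 against Set 2 and Gstm2 in Set 3 against Set 4 lost) carries no pairing. The within-set SD moved to 0.62 for Gstm2 after thinning and to 0.75 and 0.66 for Gsta2 and Gstm3 with a prior count of 2. Where the cause of a change is not given by the setting itself, the cause was not tested. Of the tested values for single members, 659 stayed on their side of the threshold, 33 lost a call, 10 gained one and 0 called values reversed, while uncalled values near 0 could change sign. Depth limits Gsta2 and Gstm3, which had as few as 0-4 counts in several libraries.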

Other observations

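The 7 organoids that the study left out had levels of the members inside or near the range of the kept ones, with totals of 666660-1152914 counts. Gsta4 ranged over 622-1605 CPM (median 837), Gstm1 over 338-808 CPM (median 405), Gsta1 over 41.1-109 CPM (median 83.3), Gstp1 over 179-507 CPM (median 301) and Gstt1 over 6.54-21.3 CPM (median 14.05).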
